A study of Sus scrofa with 24 samples.

Results

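Mitochondrial ribosomal proteins were followed in peripheral blood mononuclear cells (PBMNCs) of pigs on 6 diets. Members were taken from the platform's probe-to-gene table as every probe set, the group of short probes that stands for a transcript on an Affymetrix array, whose single gene symbol was MRPL or MRPS with a number. The rule gave 77 probe sets of 58 genes (of 6765 genes named by a single symbol) out of 23999 probe sets, with 36 MRPL genes (51 probe sets) and 22 MRPS genes (26 probe sets). After the lowest 25% of probe sets by mean signal were left out, 75 member probe sets remained among 17999 tested. Those 75 covered all 58 genes, and the pair left out was a weak probe set each for MRPL35 (mean log2 intensity 3.19) and MRPL52 (3.36). A further 6 probe sets that carried several symbols, an MRPL or MRPS symbol among them, were not used.

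Mitochondria keep their own ribosome, which translates the few proteins encoded by mitochondrial DNA, all of them parts of the respiratory chain and the ATP synthase. Its proteins are encoded in the nucleus, made in the cytosol and imported. MRPS names were given to proteins of the small subunit, which reads the messenger RNA, and MRPL names to proteins of the large subunit, which joins the amino acids. Some members have a counterpart in bacteria and others occur only in mitochondria. The names are older than the structures, and among the members followed here 2 of them mislead. MRPS30 sits in the large subunit, and MRPS36, now also called KGD4, is a part of the 2-oxoglutarate dehydrogenase complex. In lymphocytes, mitochondrial translation is known for its demand during activation and division.

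The animals, each measured on 1 of 24 arrays, fell into 6 groups of 4 (2 females and 2 males), fed for 4 months. CT received commercial chow, and CT-GE-RES the same chow with a resveratrol-enriched grape extract. AD received an atherogenic diet with beef tallow (5.5%), coconut oil (10%) and cholic acid (1%). AD-GE received that diet plus plain grape extract, AD-GE-RES the diet plus the enriched extract, and AD-RES the diet plus resveratrol, a stilbene found in grapes. For every 70 kg of pig the dose was 1 g of either extract or 18 mg of resveratrol, the amount that the enriched extract also supplied. Strain and age are not given in the sources used here. PBMNCs were isolated from heparinised blood on a density gradient. Animals 1 and 2 of a group are females here, and 3 and 4 males. The study asked what the atherogenic diet does to PBMNC expression, and whether low doses of the supplements modulate it on either diet.

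Values below are log2 intensities, group values are mean ± SD (n = 4), and differences are on the log2 scale, where 1 is a doubling. Signals of different probe sets depend on their probes and were not compared as amounts. Array medians of the deposited intensities lay between 38.6 and 41.2, and no pair of arrays was identical. Among lymphocyte markers, probe sets of the T cell genes CD3E, CD8A, LCK and CD4 had mean log2 intensities of 10.2, 11.4, 10.6 and 4.54, and CD79B of B cells had 8.73. The 7 measured monocyte genes had means from 4.75 (FCGR1A) to 10.6 (CEBPD), with CD163 at 8.76 and CD14 at 6.05 (lowest animal 4.31). The 3'/5' ratio of 3 control transcripts, a measure of how complete the labelled RNA was, ran from 1.37 to 4.39 (log2) over the animals and was highest in animal CT 4. In whole-population RNA of this kind, fewer cells of a type and less RNA per cell cannot be told apart. "Called" means a limma p-value under 0.05 after Benjamini-Hochberg adjustment over all 17999 probe sets.

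How far the group means lay apart across the 6 diets was taken for the members only, with no value for all probe sets. The range of the 6 group means had a median of 0.33 over the 75 member probe sets, from 0.09 for MRPL45 to 1.20 for 1 probe set of MRPL3, and was under 0.5 for 62 of them. The group with the highest mean was CT-GE-RES for 51 of 75 members (68%), against 21.7% of all probe sets tested. The lowest mean was in AD-GE for 25 members (33.3%, against 18.8% of all) and in CT for 24 (32%, against 21.9%). Leaving out 1 animal at a time, CT-GE-RES held the highest mean of 41 members (without CT-GE-RES 1) to 55. A moderated F test over the 6 groups called 0 of 17999 probe sets (0%) and 0 members. At an unadjusted p under 0.05 it picked 10 members, where 9.16% of all probe sets passed.

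As a summary for each animal, the median deviation of the 75 members from their own means over the 24 animals was taken. It was -0.013, 0.14, -0.063 and -0.23 in the CT animals 1 to 4 and 0.23, 0.083, 0.24 and 0.052 in the CT-GE-RES animals. AD animals had -0.12, -0.017, 0.080 and -0.13, and AD-GE animals -0.18, -0.043, 0.011 and -0.066. The values were -0.030, 0.079, 0.033 and 0.019 in AD-GE-RES and 0.031, -0.0066, 0.016 and -0.0013 in AD-RES. All 4 CT-GE-RES animals were above 0, with a mean of 0.15 ± 0.096, while CT had -0.042 ± 0.15 and its animals spread over the widest range of any group. Animal CT 2 lay inside the CT-GE-RES range, so the groups overlapped.

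**Figure D1:**
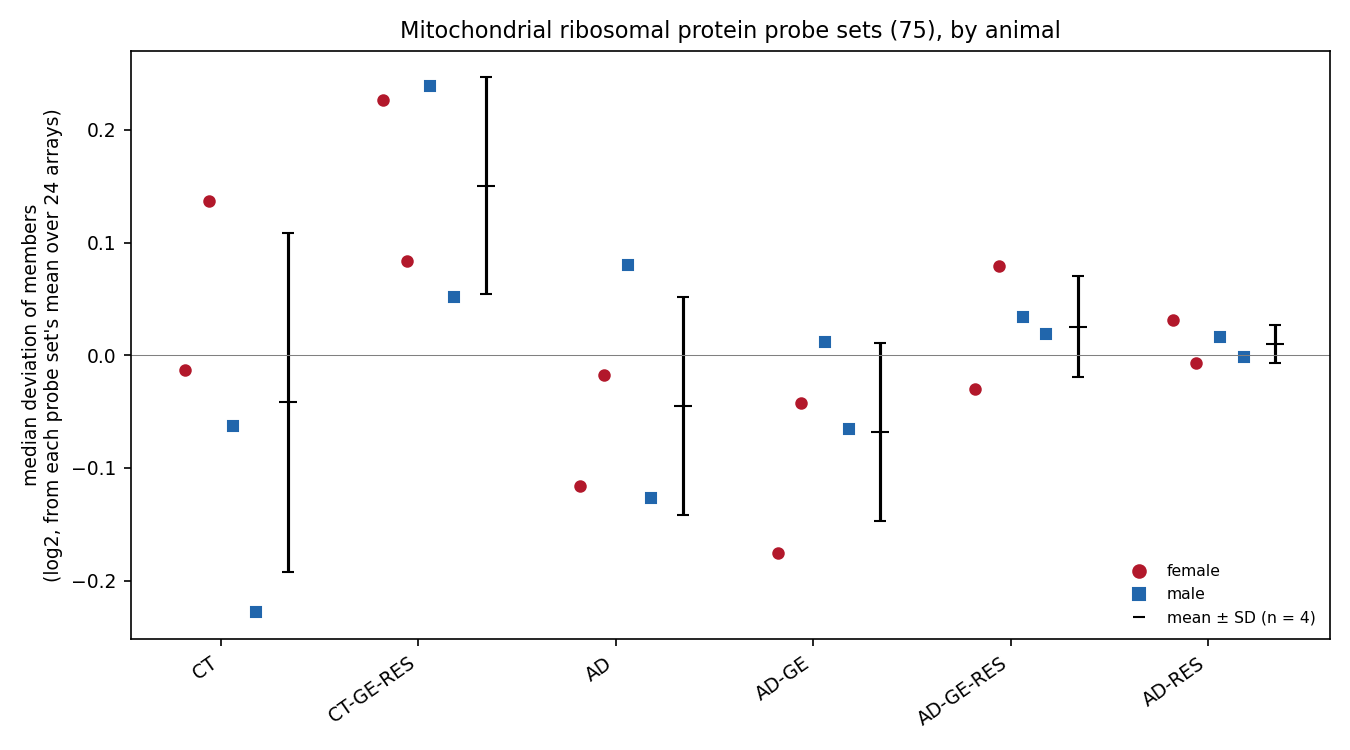
Median deviation of the 75 member probe sets in each of 24 animals (y axis, log2, from each probe set's mean over all arrays) by diet group (x axis); red circles are females, blue squares males, bars mean ± SD with n = 4. The 4 CT-GE-RES animals sit between 0.052 and 0.24, and animal CT 4 is lowest at -0.23.

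The comparison of CT-GE-RES with CT, which asks what the enriched extract does on chow, showed the most one-sided pattern. No probe set was called among the 17999 (0%), members included, and the smallest adjusted p of a member was 0.700 with limma. Of the 75 members, 67 were higher and 8 lower in CT-GE-RES, with a median difference of 0.20, while 52.3% of all probe sets were higher, with a median of 0.0094. An unadjusted p under 0.05 was reached by 16 members (21.3%), all of them higher, against 6.8% of all probe sets (3.87% in the higher direction). By name, 44 of 49 MRPL probe sets were higher (median 0.18) and 23 of 26 MRPS probe sets (median 0.28). Taken as 1 mean for each gene, 53 of 58 genes were higher, with a median of 0.22.

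How many animals carried these counts was examined next. Leaving out 1 animal at a time kept 58 to 71 members higher, with medians from 0.15 to 0.26. The number with an unadjusted p under 0.05 was less steady: instead of 16 it was 1 without CT 4 (2.75% of all probe sets then). That number was 9 without CT-GE-RES 1 (6.31% of all) and 10 without CT-GE-RES 3 (5.39% of all). It was 28 without CT 2, when 10.3% of all passed. Animal CT 4 held the lowest value of all 24 animals for 27 of the 75 members, and CT-GE-RES 3 and CT-GE-RES 1 held the highest for 19 and 16. Without CT 4, 71 members were higher, with a median of 0.15, and array weights in the fit gave a median of 0.12. By sex, 64 members were higher in males (median 0.32, 52.3% of all above 0) and 55 in females (median 0.12, 50.6% of all). No member was called in males (0.678% of all were) or females (0%), while 29 and 1 had an unadjusted p under 0.05, against 22.1% and 4.82% of all. The sexes' effects differed by a member median of 0.25, with 56 members larger in males (53.3% of all). That difference was called for 0 members by limma (0.289% of all), and 11 had an unadjusted p under 0.05 (15% of all).

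The 3'/5' ratio was 3.15 ± 1.13 in CT and 2.20 ± 0.89 in CT-GE-RES (two-sided exact permutation p 0.143, where 0.0286 is the smallest 4 against 4 animals can give). After adjustment for the ratio in the limma model, 71 of 75 members were higher, with a median of 0.16, and 7 had an unadjusted p under 0.05, against 4.26% of all. Leaving out CT 4 as well gave 69 higher, a median of 0.11 and 3 such members, against 3.37% of all. Among the 58 members without a called slope on the ratio, 50 were higher, with a median of 0.17. Cell type markers differed between the groups as well, with 0 called by limma. All 10 measured of 13 listed T cell genes were higher in CT-GE-RES, 6 of them with an unadjusted p under 0.05. Their mean deviation ran from -1.25 to 0.11 in CT and from 0.03 to 0.48 in CT-GE-RES. Of 10 listed neutrophil genes 6 were measured, with mean deviations of 0.09 to 2.09 in CT and -0.72 to 0.085 in CT-GE-RES. Of 8 erythroid genes 4 were measured, with -0.69 to 1.84 and -1.38 to 0.21. The median differences of the other lists were -0.22 for 3 B cell genes, -0.21 for 7 monocyte genes, 0.21 for a pair of NK cell genes and -0.018 for 7 platelet genes. Some markers were weak: ELANE of neutrophil granules had a mean of 4.21, and CAVIN2 of the platelet list read 3.14 in its lowest animal. The 4 measured erythroid genes had means from 6.88 (HBE1) to 11.3 (ALAS2). With monocyte, B cell and erythroid means as terms the members' median was 0.17, and the part of T cell and neutrophil markers in the result was not tested.

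**Figure D2:**
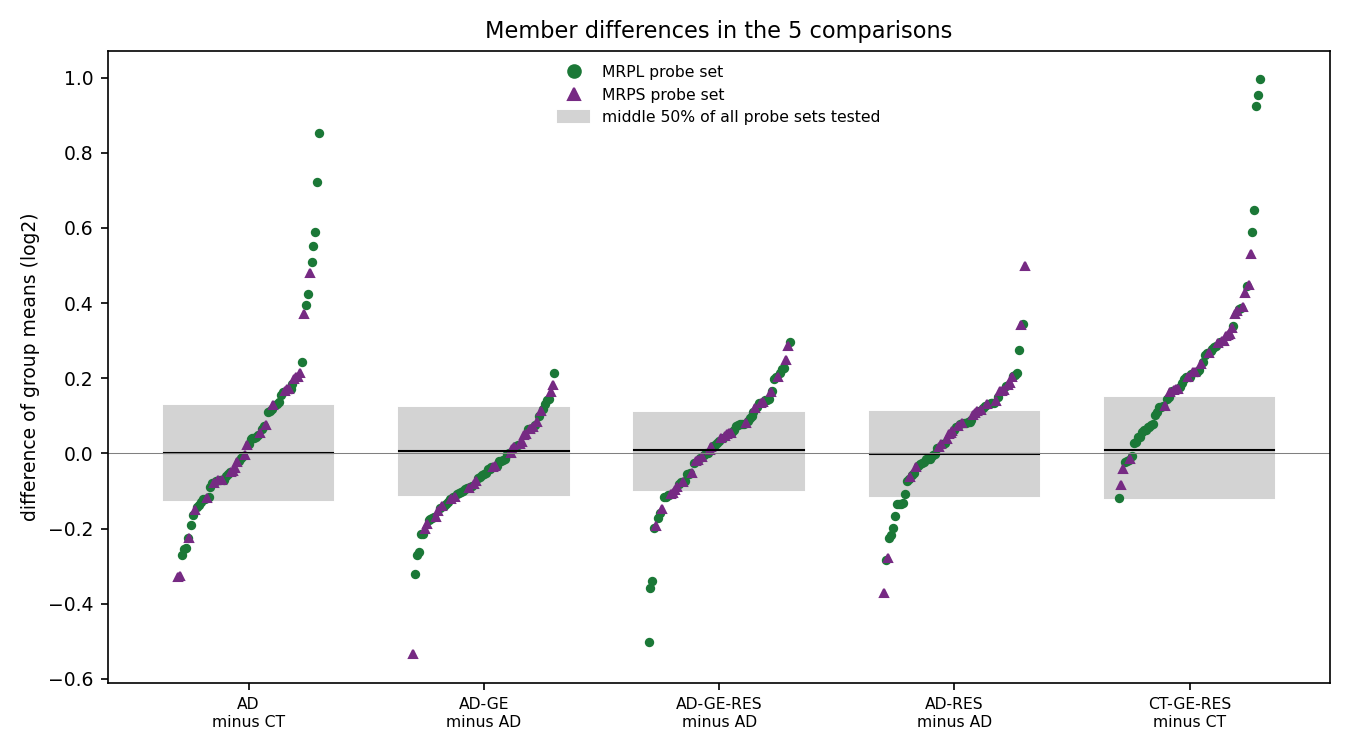
Differences of group means (y axis, log2) of the 75 member probe sets in the 5 comparisons (x axis), sorted within each; green circles are MRPL, purple triangles MRPS, grey boxes span the middle 50% of all probe sets tested and the black line is their median. In CT-GE-RES minus CT, 67 of 75 points lie above 0, and in AD minus CT 39 do.

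MRPL16, the counterpart of the bacterial large subunit protein L16, had the smallest p of the members in this comparison. It read 7.59, 7.55, 7.39 and 7.10 in CT and 7.85, 7.92, 7.85 and 7.80 in CT-GE-RES. The groups did not overlap, and the difference was 0.45 (SE 0.14, 95% interval 0.16 to 0.73, limma adjusted p 0.700). Only 2 members were free of overlap here, against 4.03% of all probe sets. The other was MRPL18 (Ssc.8554.2.S1_at), counterpart of bacterial L18, which binds 5S ribosomal RNA. It read 6.997, 6.88, 6.93 and 4.50 in CT and 7.18, 7.33, 7.30 and 7.19 in CT-GE-RES. Most of that difference of 0.92 (SE 0.35) lay in CT 4, and it was 0.30 without that animal. Another MRPL18 probe set differed by 0.13, with CT at 7.15, 7.24, 7.10 and 7.31 and CT-GE-RES at 7.25, 7.39, 7.41 and 7.25.

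MRPL43, a large subunit protein found only in mitochondria, read 8.98, 9.07, 8.96 and 8.76 in CT and 9.21, 9.20, 9.31 and 9.03 in CT-GE-RES on Ssc.2010.1.S1_at. Only CT 2 reached into the supplemented range, and the difference was 0.24 (SE 0.09). That probe set had the smallest residual SD of all members (0.10). Its partner, Ssc.2010.2.S1_a_at, differed by 0.95 (SE 0.42) with a CT SD of 1.14, and by 0.37 without CT 4.

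Among small subunit proteins, MRPS12, which lines the decoding centre and is the counterpart of the streptomycin-binding protein of bacteria, was higher on all 3 probe sets, by 0.37, 0.31 and 0.43. On Ssc.9341.1.S1_at it read 7.90, 8.17, 7.78 and 7.51 in CT and 8.31, 8.16, 8.26 and 8.11 in CT-GE-RES. MRPS26, known only from mitochondria, read 8.56, 8.95, 8.53 and 7.53 in CT against 9.01, 8.85, 8.97 and 8.86. Its difference of 0.53 (SE 0.20) was 0.23 without CT 4. MRPS34, another protein particular to mitochondria and needed for a stable small subunit, read 9.21, 9.16, 8.97 and 8.56 against 9.61, 9.26, 9.16 and 9.42, a difference of 0.39 (SE 0.15) that was 0.25 without CT 4. For each of these proteins at least 1 CT animal lay within the CT-GE-RES range.

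The remaining members with an unadjusted p under 0.05 were MRPS7, MRPS10, MRPS11, MRPS17, MRPL14, MRPL19, MRPL46 (Ssc.17653.1.S1_at) and MRPL58, with differences from 0.24 (MRPS11) to 0.59 (MRPL46). Without CT 4 that of MRPL46 was 0.15, that of MRPL14 went from 0.39 to 0.22, that of MRPS10 from 0.33 to 0.18 and that of MRPS17 from 0.32 to 0.21. MRPL58, also called ICT1, releases stalled peptides from the ribosome. It read 7.78, 8.01, 7.74 and 6.86 in CT and lay between 7.83 and 8.11 in CT-GE-RES, a difference of 0.39 (SE 0.15), or 0.15 without CT 4. Of the 16, MRPL16 alone kept an unadjusted limma p under 0.05 (0.0230) without that animal. The 8 members with a lower mean differed by -0.12 (MRPL33) to -0.0079 (MRPL35), all within their standard errors.

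**Figure D3:**
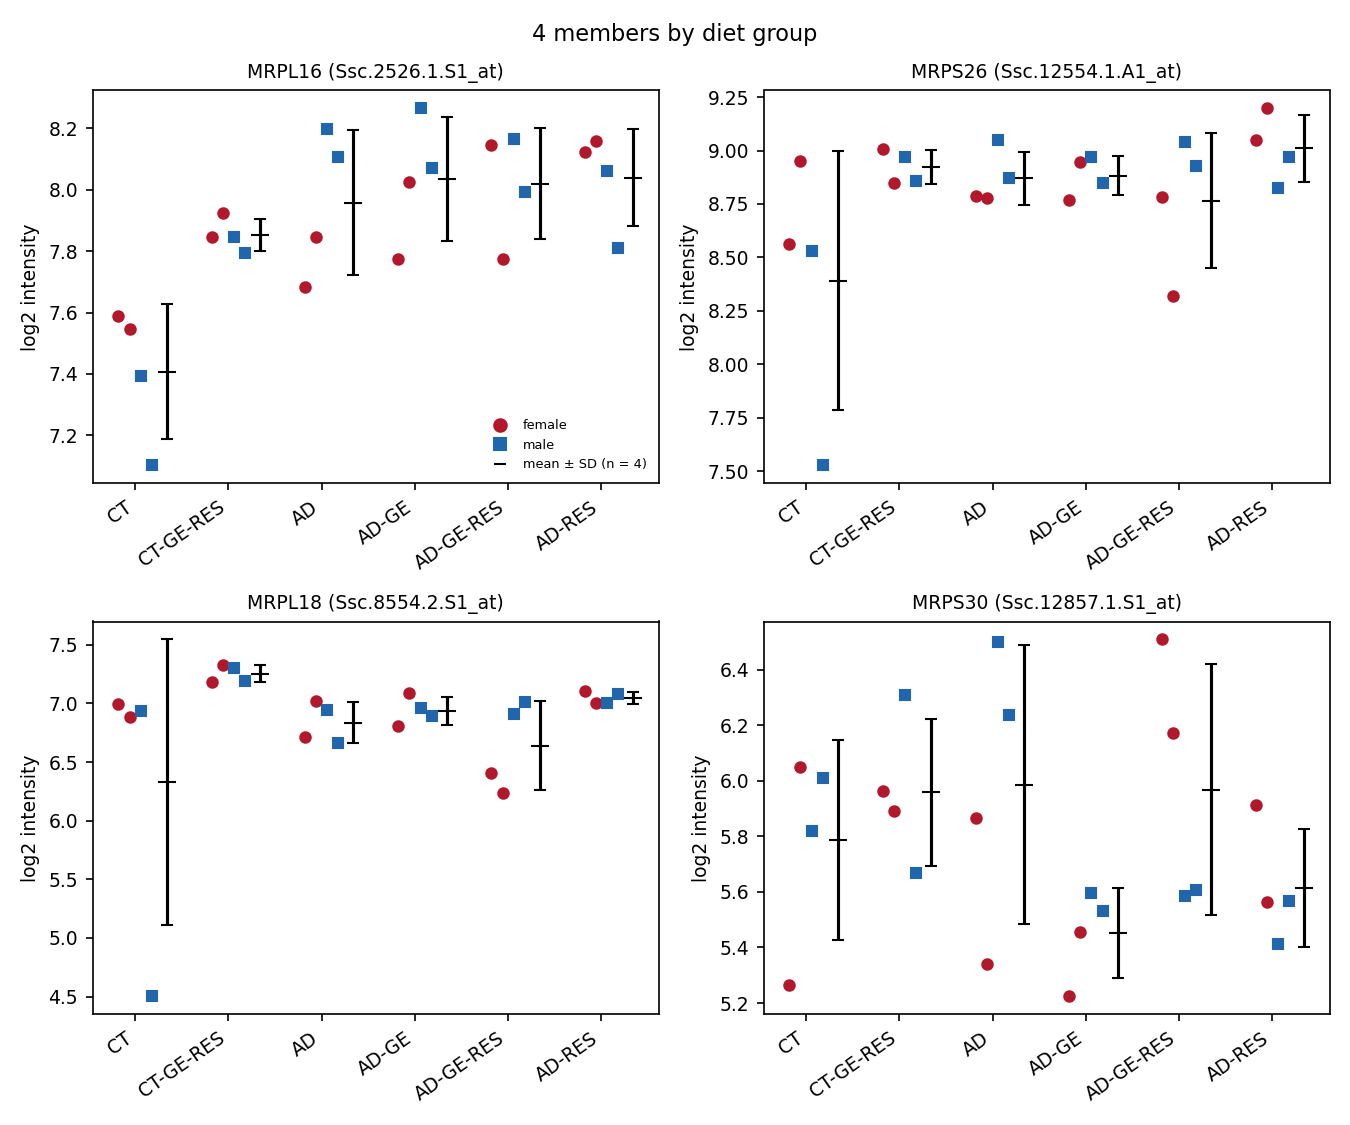
Log2 intensity (y axis) of MRPL16, MRPS26, MRPL18 and MRPS30 in each animal by diet group (x axis); red circles are females, blue squares males, bars mean ± SD with n = 4. The 4 CT animals are lowest for MRPL16 (7.10 to 7.59), and 1 CT animal at 4.50 sets the CT mean of MRPL18.

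Other parts of mitochondrial translation were read from lists of genes. Among the ribosome's proteins that carry other names, 4 of 4 measured were higher in CT-GE-RES than in CT (median 0.22), with GADD45GIP1 at 0.29 and DAP3 at 0.24. All 10 measured translation factors were higher (median 0.22), among them the elongation factors TUFM (0.24) and TSFM (0.27). Of 10 tRNA synthetases and amidotransferase subunits 8 were higher (median 0.14), led by GATC (0.49) and FARS2 (0.35). Of 18 ribosome assembly factors 11 were higher (median 0.034), with TFB1M, a methylase of the small subunit's rRNA, at 0.53 and GTPBP10 at 0.52. Of 10 genes of mitochondrial transcription, its regulators and RNA handling 9 were higher (median 0.12), with the elongation factor TEFM at 0.39. None of these genes was called by limma. GATC, TFB1M and GTPBP10 alone among them reached an unadjusted p under 0.05.

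AD against CT asks what the atherogenic diet does, and it shares the CT animals with the comparison above. Members split almost evenly, with 39 higher and 36 lower in AD, and a median of 0.026 beside 0.0017 for all probe sets, of which 50.4% were above 0. The median turned to -0.045 (31 higher) without CT 4, to -0.0093 without AD 3, to -0.0035 with the 3'/5' ratio among the terms and to -0.038 with array weights. No probe set was called (0%), members included. An unadjusted p under 0.05 was found for 3 members (4%), against 6.38% of all, and for 2 to 12 members when 1 animal was left out, with 12 without CT 1 (11.9% of all probe sets then), 7 without CT 2 (7.11%) and 5 without CT 3 (5.36%), AD-GE-RES 2 (6.78%), AD-RES 2 (6.46%) or CT-GE-RES 3 (6.4%). MRPS and MRPL probe sets had medians of 0.0091 and 0.037. Of the measured markers, 9 of 10 T cell genes were higher in AD (median 0.31), 3 of 6 neutrophil genes (-0.043), 1 of 4 erythroid genes (-0.43), 4 of 7 monocyte genes (0.027), a pair of NK cell genes (0.11), none of 3 B cell genes (-0.37) and 1 of 7 platelet genes (-0.77), with 0 called. With monocyte, B cell and erythroid means as terms the members' median was 0.013, and the part of the other lists was not tested.

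MRPL16 again had the smallest p. AD animals read 7.68, 7.85, 8.20 and 8.11, all above the 4 CT animals listed earlier, a difference of 0.55 (SE 0.14, 95% interval 0.27 to 0.83, limma adjusted p 0.633). It was the only member without overlap, where 2.74% of all probe sets had none. MRPL16 was 8.03 ± 0.20 in AD-GE, 8.02 ± 0.18 in AD-GE-RES and 8.04 ± 0.16 in AD-RES. Every animal of the other 5 groups read above the highest CT animal, and the ranges of those 5 groups overlapped. Its F test over the diets gave an unadjusted p of 0.000958 and an adjusted p of 0.297 with limma, the smallest of the members.

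MRPS26 was higher in AD by 0.48 (SE 0.20), with AD animals at 8.79, 8.78, 9.05 and 8.87, and by 0.18 without CT 4. MRPS35, a small subunit protein known only from mitochondria, was lower by 0.33 (SE 0.15). It read 6.76, 6.94, 6.60 and 6.90 in CT and 6.28, 6.59, 6.63 and 6.41 in AD, so that AD 3 alone entered the CT range. MRPL13, with a bacterial counterpart, read 8.22, 8.60, 8.60 and 8.31 in CT and 8.17, 8.16, 8.28 and 8.04 in AD (difference -0.27, SE 0.13), with CT 1 below AD 3. MRPS28 and MRPS23 were lower by 0.33 and 0.23 with unadjusted p-values of 0.0575 and 0.0584 from limma.

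The same comparison was read within each sex. Within females (2 against 2 animals, with the spread taken from all 12 diet and sex groups) 15 members were higher and 60 lower, with a median of -0.096, while 49.3% of all probe sets were higher. Within males 50 were higher and 25 lower, with a median of 0.19, beside 49.5% of all higher. The male effect exceeded the female one in 59 of 75 members (51.3% of all), by a median of 0.32. limma called that difference for 0 members (smallest adjusted p 0.105) and 0.117% of all, and 15 members had an unadjusted p under 0.05, against 14.9% of all. Females had 0 members called (0.00556% of all) and 4 with an unadjusted p under 0.05 (5.92% of all). Among males, 242 probe sets (1.34%) and 2 members were called, and 16 members had an unadjusted p under 0.05 (18.6% of all). MRPL16 rose by 0.90 (SE 0.15, limma adjusted p 0.0144), from 7.39 and 7.10 in the CT males to 8.20 and 8.11 in the AD males. MRPL53, a large subunit protein found only in mitochondria, rose by 1.00 (SE 0.21, limma adjusted p 0.0355), from 8.32 and 7.84 to 9.04 and 9.13. In females MRPL16 differed by 0.20 and MRPL53 by -0.22, neither called, and the test of the difference between the sexes called neither gene.

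Both male calls depended on which animals were in the fit. No member was called without CT 4 (adjusted p 0.0837 for MRPL16 and 0.244 for MRPL53 with limma) or without AD 3 (0.114 and 0.142), and 14 members were called without CT 3, when 8.58% of all probe sets were. MRPL53 also lost its call without AD 4 (0.0832), without AD-GE 3 or AD-GE 4 (0.0531), and without AD-RES 3 or AD-RES 4 (0.0552). After adjustment for the 3'/5' ratio, the call of MRPL16 held and that of MRPL53 did not (adjusted p 0.103). The ratio averaged 3.81 in the CT males and 2.22 in the AD males, beside 2.48 and 2.16 in the females. The platelet list averaged 1.18 in the CT males and -0.90 in the AD males, the erythroid list 1.14 and -0.33, the neutrophil list 1.09 and 0.10, and the T cell list -0.83 and 0.069. The other lists averaged 0.053 and -0.41 (B cell), -0.14 and 0.28 (monocyte) and -0.046 and 0.070 (NK cell). The part of these values in the male calls was not tested.

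Each supplemented atherogenic group was compared with AD, so those comparisons share the AD animals. Grape extract (AD-GE against AD) went with 25 members higher and 50 lower, a median of -0.054 beside 0.0065 for all (51.4% of all above 0), and 0 called (0% of all). Without AD 3, 38 members were higher and the median was 0.0046, and without AD-GE 3 it was -0.094. All 7 measured monocyte genes were lower in AD-GE, 4 of them with an unadjusted p under 0.05 and 0 called by limma. The mean deviation of that list ran from 0.087 to 0.74 in AD and from -0.70 to -0.022 in AD-GE, without overlap. Of 6 neutrophil genes 5 were lower, with a list mean of 0.50 in AD and -0.33 in AD-GE. The members' median was -0.012 with monocyte, B cell and erythroid means as terms and -0.022 with array weights, and the part of neutrophil markers was not tested. With limma, 1 member had an unadjusted p under 0.05, against 6.09% of all probe sets. That count was 0 without AD 3 or AD-GE 1 (4.36% and 5.33% of all) and 3 without CT 4 (6.72% of all). With all animals 0 members were free of overlap, against 4.72%. The member with the smallest p was MRPS30, a large subunit protein in spite of its name. It read 5.87, 5.34, 6.50 and 6.24 in AD and 5.22, 5.45, 5.60 and 5.53 in AD-GE, a difference of -0.53 (SE 0.24, limma adjusted p 0.804). The AD-GE animals lay close together, and AD 2 fell among them. MRPL1, counterpart of the protein of the mobile L1 stalk, followed with -0.32 (SE 0.16): 7.95, 8.50, 8.48 and 8.17 in AD against 7.59, 7.92, 8.10 and 8.20. MRPL33 (Ssc.17523.2.S1_a_at), MRPL38 (Ssc.4435.2.S1_at), MRPL50 and MRPS14 were lower by 0.26, 0.22, 0.27 and 0.15, with unadjusted limma p-values from 0.0696 to 0.148. The other MRPL33 probe set (Ssc.17523.1.S1_at) differed by 0.21, in the opposite direction, and the other MRPL38 probe set by -0.18.

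MRPL1 was also second in the F test over the 6 diets (unadjusted p 0.00390, adjusted p 0.360 with limma). Its CT-GE-RES animals read 8.74, 8.58, 8.66 and 8.74, above every animal on the atherogenic diet, and 2 of the CT animals (8.66 and 8.65) lay beside them. Group means ran from 7.95 ± 0.27 in AD-GE through 8.16 ± 0.12 in AD-GE-RES, 8.27 ± 0.21 in AD-RES, 8.27 ± 0.26 in AD and 8.42 ± 0.28 in CT to 8.68 ± 0.08 in CT-GE-RES. No gap between neighbours in that order exceeded the larger of their SDs.

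The enriched extract on the atherogenic diet (AD-GE-RES against AD) went with 45 members higher and 30 lower, a median of 0.032 beside 0.0089 for all (52.4% of all above 0), and 0 called by limma (0% of all). The median was 0.00081 (38 higher) without AD 1, -1.4e-05 after quantile normalization was repeated, 0.058 with each array centred on its median and 0.051 with array weights. All 7 monocyte and all 6 neutrophil genes were lower in AD-GE-RES, with 0 called and list means of 0.35 in AD against -0.043 and 0.50 against -0.083. With monocyte, B cell and erythroid means as terms the members' median was 0.017. No member had an unadjusted p under 0.05, against 2.4% of all probe sets. Without AD 3 there were 3 such members, against 4.28% of all. With all animals the smallest p was that of MRPL32, a large subunit protein that is cut to its mature form after import. Its difference was 0.30 (SE 0.15, unadjusted limma p 0.0562). MRPL32 read 5.74, 5.97, 6.10 and 5.78 in AD and 5.99, 6.30, 6.33 and 6.15 in AD-GE-RES on Ssc.29111.1.S1_at, with overlap. A probe set of MRPL35 was the only one without overlap, against 1.26% of all: 4.13, 4.20, 4.28 and 4.21 in AD and 4.37, 4.67, 4.37 and 4.31 in AD-GE-RES (difference 0.23, SE 0.15). MRPL40, MRPL52 (Ssc.3811.1.S1_a_at) and MRPL3 (Ssc.7228.1.A1_at) were higher by 0.20, 0.22 and 0.21. MRPL2 (Ssc.21783.2.S1_a_at), next to the peptidyl transferase centre, was lower by 0.50 (SE 0.33), with AD-GE-RES animals at 7.40, 6.65, 7.92 and 8.04. That difference was -0.20 without AD-GE-RES 2, the animal at 6.65, and -0.69 without AD-GE-RES 4. The other MRPL2 probe set (Ssc.21783.1.S1_at) differed by 0.0023. Ssc.21783.2.S1_a_at had a called slope on the 3'/5' ratio, described further on. The ratio was 3.40 and 4.08 in AD-GE-RES 1 and 2, and 1.67 and 1.62 in AD-GE-RES 3 and 4. Its part in the difference was not tested.

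Resveratrol alone (AD-RES against AD) went with 47 members higher and 28 lower, a median of 0.062 beside -0.0024 for all (49.4% of all above 0), and 0 called (0% of all). The median ranged from 0.021 without AD 4 to 0.11 without AD 3, and was 0.083 in females and 0.0056 in males. Of the monocyte genes 6 of 7 were lower in AD-RES (list mean 0.35 in AD and -0.17 in AD-RES) and of the neutrophil genes 6 of 6 (0.50 and -0.27), with 0 called. With monocyte, B cell and erythroid means as terms the members' median was 0.11, and the part of neutrophil markers was not tested. MRPS probe sets were higher in 22 of 26 cases (median 0.10) and MRPL probe sets in 25 of 49 (median 0.015). An unadjusted p under 0.05 was found for 1 member, against 4.45% of all, and it was lower: MRPS2, counterpart of bacterial S2, by 0.28 (SE 0.11). MRPS2 read 8.31, 8.18, 8.22 and 8.40 in AD and 8.08, 8.19, 7.88 and 7.84 in AD-RES on Ssc.1787.1.A1_at. A weaker MRPS2 probe set (Ssc.1787.2.S1_at, mean 4.61) differed by 0.072. MRPL38 (Ssc.4435.1.S1_at), known only from mitochondria, was the member without overlap, against 2.81% of all: 7.80, 7.74, 7.68 and 7.66 in AD and 7.30, 7.49, 7.48 and 7.47 in AD-RES (difference -0.28, SE 0.14). MRPL19 and MRPS9 (Ssc.21936.2.S1_at) were higher by 0.28 and 0.34, and MRPS30 and MRPL37 lower by 0.37 and 0.22, with unadjusted limma p-values from 0.0835 to 0.173.

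Among the mitochondrial translation lists, limma called no gene in these 4 comparisons either. Against CT, AD had 3 of 10 translation factors higher and 8 of 10 genes of mitochondrial transcription, its regulators and RNA handling higher (median 0.21). Among the latter TRMT10C, a part of mitochondrial RNase P, was higher by 0.54, MYC, a transcription factor, higher by 0.67 and SLIRP, an RNA stabilizer, lower by 0.28, each with an unadjusted p under 0.05. In the same comparison 3 of 4 ribosomal proteins with other names, 4 of 10 tRNA synthetases and 8 of 18 assembly factors were higher. Counts in the supplemented groups against AD ran from 3 of 4 to 4 of 4 for the first list, 3 to 6 of 10 for the synthetases and 5 to 13 of 18 for the assembly factors. They ran from 6 to 7 of 10 for the translation factors and from 3 to 5 of 10 for transcription and RNA handling. The assembly factor GTPBP10 was higher than in AD by 0.50 in AD-RES and 0.40 in AD-GE-RES, and NSUN3 was lower by 0.49 in AD-GE.

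The effect of the enriched extract on the atherogenic diet minus that on chow was below 0 for 58 of 75 members (median -0.16, beside 0.0013 for all). None was called (0% of all; smallest adjusted p 1.00 with limma), and 9 had an unadjusted p under 0.05, against 3.12% of all probe sets. MRPS34 had the smallest, with an estimate of -0.54 (SE 0.21). Of these 9, 6 had a called slope on the 3'/5' ratio, described further on, and CT 4 was the lowest CT animal for all 9. With the ratio among the terms 2 members had such a p (1.54% of all), and without CT 4 there were 3 (2.36% of all). Leaving out 1 animal at a time gave 1 such member without AD 3 or AD-GE-RES 2 (2.42% and 2.22% of all) to 14 without CT 1 (7.73% of all). From 52 to 64 members stayed below 0. In the 5 comparisons, 69 to 72 of the 75 members had a 95% interval inside a doubling and a halving of the level. That was 92% to 96% of members, against 91.6% to 94.7% of all probe sets. Smaller differences were not resolved with 4 animals in a group.

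Males and females over all diets (12 against 12) differed in 48 of 17999 probe sets (0.267%) and in 0 members. With limma, 1 member had an unadjusted p under 0.05, against 10.3% of all: MRPS2 on Ssc.1787.2.S1_at was higher in males by 0.33 (SE 0.13, adjusted p 0.385). That probe set was weak, with a mean of 4.61. The other MRPS2 probe set (Ssc.1787.1.A1_at, mean 8.26) went the other way, with males minus females at -0.10. MRPL50, MRPS14, MRPS24 and MRPL40 were lower in males by 0.20, 0.12, 0.13 and 0.12.

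Most of the members' calls came from the relation with the 3'/5' ratio. Within diet and sex, limma called a slope for 17 of 75 members (22.7%), against 11.5% of all probe sets. Of these, 16 fell as the ratio rose (8.29% of all did) and 1, MRPL33 on Ssc.17523.2.S1_a_at, rose (3.24% of all). MRPL3, which reaches toward the peptidyl transferase centre, fell by 0.85 per log2 unit (SE 0.07, limma adjusted p 5.5e-08) on Ssc.20954.2.S1_a_at. MRPS9 fell by 0.83 (SE 0.08) on Ssc.21936.3.S1_at, and MRPL43 by 0.62 (SE 0.07) on Ssc.2010.2.S1_a_at. MRPL2 fell by 0.42 (SE 0.08) and MRPS34 by 0.20 (SE 0.03). The other called members were MRPL4, MRPL15, MRPL18, MRPL28, MRPL37, MRPL38, MRPS22, MRPS25, a further probe set of MRPS9 and a pair of MRPS12. Without CT 1, 8 members and 1374 of all probe sets were called, against 2075 with it.

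Probe sets of the same gene parted along the ratio. MRPL3 on Ssc.20954.2.S1_a_at ranged over 3.46 log2 units, from 5.46 in CT 4 to 8.92 in AD 3. The other MRPL3 probe sets had slopes of -0.09 and 0.02 and stayed between 8.83 and 9.31 and between 3.59 and 4.27. For MRPL43 the slopes were -0.62 and -0.01, for MRPL2 -0.42 and -0.02, for MRPS9 -0.83 and -0.28, and for MRPL18 -0.34 and 0.03. In the comparisons this showed as unlike values for a gene: for AD against CT, MRPL3 differed by 0.85 on the steep probe set and by -0.0066 and -0.012 on the others. Of 14 genes with several probe sets tested, 5 had differences of both signs in AD against CT and 4 in CT-GE-RES against CT. In each supplemented atherogenic group against AD, 7 of the 14 did. The residual SD of the steep MRPL3 probe set dropped from 0.84 to 0.30 once the ratio was in the fit, and that of MRPS9 from 0.83 to 0.31. Where each probe set lies along its transcript was not analysed here, and its part in the slopes was not tested.

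**Figure D4:**
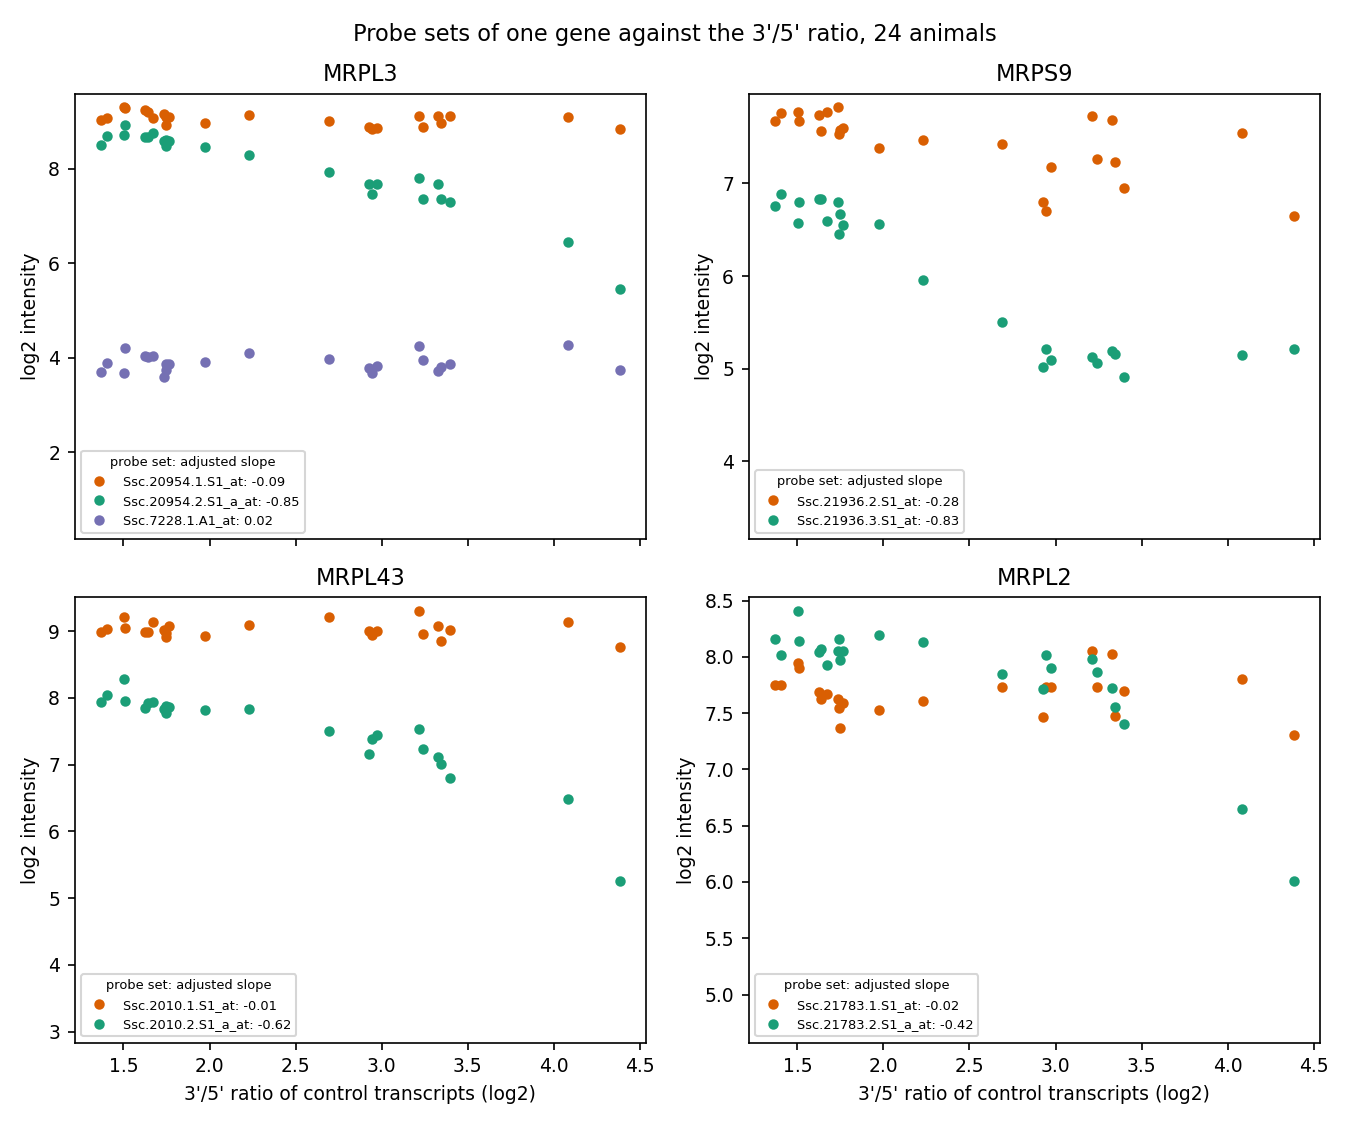
Log2 intensity (y axis) of each probe set of MRPL3, MRPS9, MRPL43 and MRPL2 against the log2 3'/5' ratio of the control transcripts (x axis) in 24 animals, with the slope adjusted for diet and sex in each key. In MRPL3 the green probe set falls with a slope of -0.85 while the others have -0.09 and 0.02.

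Members varied together from animal to animal. The mean pairwise Pearson correlation of their residuals from diet and sex over the 24 arrays was 0.17, beside 0.0037 for all probe sets tested, and 0.19 once the ratio was adjusted for. These points share libraries and arrays, and the values are a description. MRPL and MRPS probe sets taken apart had 0.17 and 0.15. The 17 members with a called slope had 0.47, which dropped to 0.10 once the ratio was adjusted for, whereas the other 58 went from 0.18 to 0.22. Pairs of probe sets for the same gene (20 pairs) averaged 0.20, little above the 0.17 of the 2755 pairs from different genes. Some of the 20 pairs include a weak probe set, with a mean of 3.90 for MRPL3 and 3.99 for MRPL46. Others join unlike slopes on the ratio, as for MRPL43 (-0.62 and -0.01). Such pairs were not taken apart, so the average says little about well measured probe sets of a gene. The residual SD of a member had a median of 0.21, beside 0.22 for all, and was smallest for MRPL43 (Ssc.2010.1.S1_at, 0.10), MRPL54 (0.11) and MRPL46 (Ssc.28339.1.A1_at, 0.11).

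**Figure D5:**
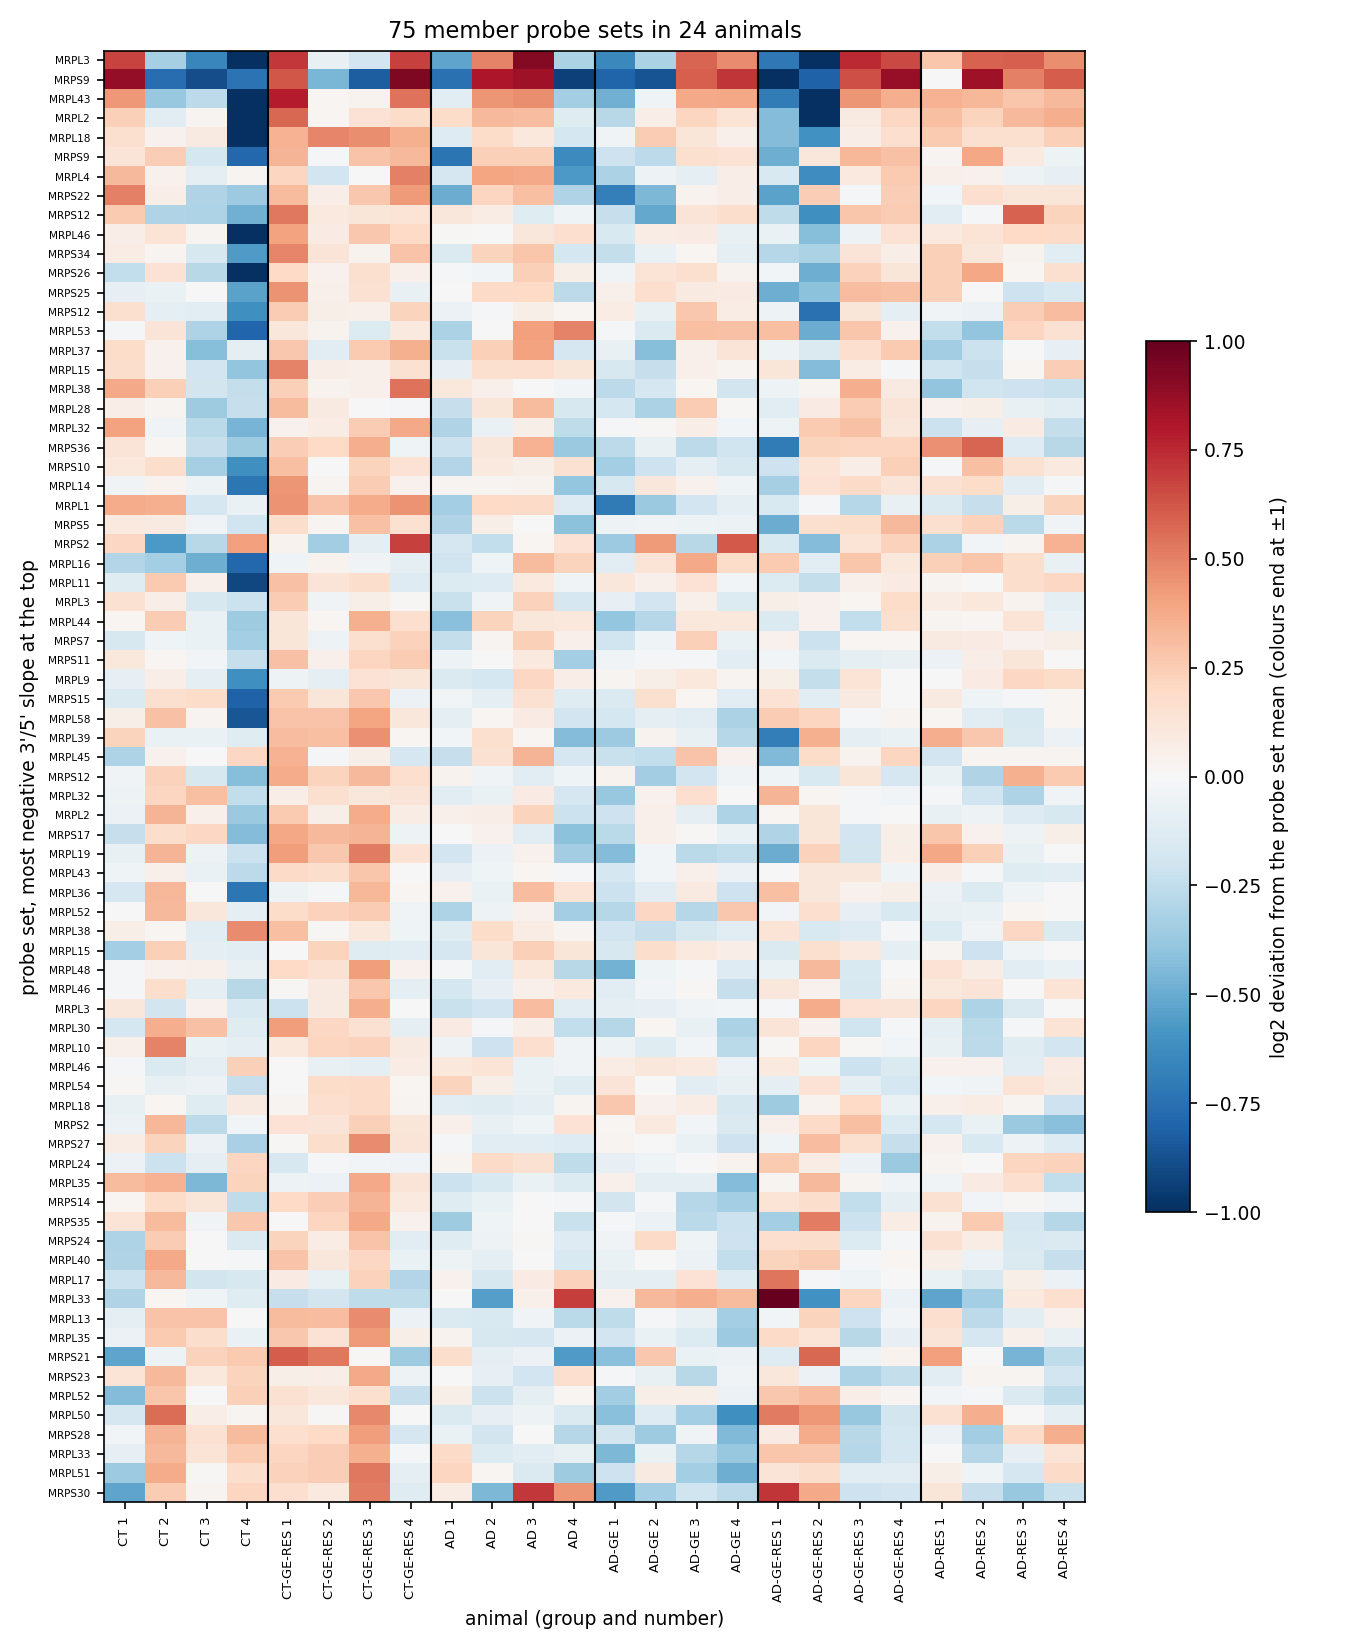
Deviation of each of the 75 member probe sets (rows, ordered from the most negative 3'/5' slope at the top) from its own mean in 24 animals (columns, by diet group); colour is log2, blue lower and red higher, ending at ±1. The top rows are blue in CT 4, and most rows are red in CT-GE-RES 1 and CT-GE-RES 3.

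A few well studied members, none of them called in a diet comparison, are given by their lowest and highest group means. MRPL11, at the base of the stalk that receives translation factors, ranged from 7.78 ± 0.51 in CT to 8.08 ± 0.18 in CT-GE-RES. MRPL44, which has a fold of the RNase III family, lay between 8.28 ± 0.26 in AD-GE and 8.56 ± 0.14 in CT-GE-RES. MRPS5 and MRPS7, both with bacterial counterparts, had group means from 6.92 ± 0.23 (AD) to 7.24 ± 0.11 (CT-GE-RES) and from 6.58 ± 0.13 (CT) to 6.85 ± 0.12 (CT-GE-RES). MRPL36 lay between 8.58 ± 0.44 in CT and 8.85 ± 0.12 in AD-GE-RES. MRPS14 had 7.87 ± 0.14 in AD-GE and 8.29 ± 0.10 in CT-GE-RES as its lowest and highest groups. MRPL12, MRPL41 and the MRPS18 proteins were not analysed here.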

How the data were processed

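Per the labels, PBMNC RNA of 24 pigs was labelled with biotin and hybridised to Affymetrix porcine arrays, 1 animal each. The authors deposited 1 linear intensity for each probe set and array; RMA and GCOS are named in the submitters' processing notes, and their versions and roles are not given in the sources used here. Deposited intensities were taken to log2 with no further normalization. Of 24123 probe sets, 124 Affymetrix controls and then the lowest 25% by mean (under 3.57) were left out. Symbols were those of the array's gene table; 76 of the 77 members matched a RefSeq gene by Entrez ID and 0 symbols changed. Sequences and positions were not used here. limma 3.58.1 (R 4.3.3, lmFit and eBayes, two-sided) fitted diet group and sex to all 24 arrays. Its p-values set a difference against a moderated estimate of the residual spread between animals. The number of arrays limits precision. The method was tested on simulated data. Members and lists were chosen with earlier results of these data known. Members named are those with the 6 smallest p in a comparison, the 5 smallest for sex and slope, those called, those of largest and smallest spread, and a panel by role; for pathway lists, the 2 smallest p. MRPL46, MRPL14, MRPS11 and MRPS17 in the CT-GE-RES comparison, MRPL53, MYC, and the 8 lower members were named after their values were seen. Alternatives were filters, normalization, array weights, covariates, single sexes, gene means and each array left out. Counts of members with 1 animal left out, the male comparison's alternatives and the values without CT 4 were chosen after seeing the data.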

Additional observations from a re-analysis of the deposited data

Results flagged for a closer look

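Of 69 groups of 4 animals examined, 2 held a value far from the other 3, and chance flags about 1 group in 20. Those groups covered the members of smallest p in each diet comparison, in the groups compared, and summary values of the animals. Other members named above were not examined in this way. MRPL18 on Ssc.8554.2.S1_at read 4.50 in animal CT 4, while the other CT animals lay between 6.88 and 6.997. MRPL38 on Ssc.4435.1.S1_at read 7.30 in animal AD-RES 1, while the other AD-RES animals lay between 7.47 and 7.49. Among the members not examined, MRPL46 on Ssc.17653.1.S1_at read 6.06 in CT 4 and 7.72 to 7.83 in the other CT animals. MRPL2 on Ssc.21783.2.S1_a_at read 6.01 in CT 4 and 7.72 to 8.07 in the others. The cause was not tested for any of these values.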

How the results depend on the processing

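Across the alternatives run, 0 members were called in the 5 comparisons averaged over both sexes. Array weights called 1 probe set for AD-GE against AD, 92 in the F test and 806 for sex. Monocyte, B cell and erythroid means as terms called 2 for AD-RES against AD and gave MRPL37 0.022 there. Without CT 4 and AD-GE-RES 1 together, sex had 216 calls. Females alone had 1 call for AD against CT, with a member median of -0.096, and 4 for AD-RES against AD, where MRPS30 was 0.14. Males alone had 242 calls for AD against CT (2 members, median 0.19), 7 for AD-RES against AD and 122 for CT-GE-RES against CT (median 0.32), and MRPL2 was 0.058 for AD-GE-RES against AD. Averaging a gene's probe sets gave MRPL3 -0.0061 for AD-GE-RES against AD. With the 3'/5' ratio, the comparison of AD with CT in males kept 1 member. The cause was not tested. Leaving out 1 animal at a time, sex had 32 to 242 calls (48 with all animals), the slope on the 3'/5' ratio 1374 to 2386 (8 to 19 members), and AD against CT in males 18 to 1544 (0 to 14 members, median 0.030 to 0.25). Of 487 values of named members under the other alternatives, 481 kept their direction and side of the threshold. Outside the slope and the male comparison these members were uncalled in the main fit. Their side of the threshold could change there only by a new call, so the count says little about it. No paired analysis was possible because the numbers of the animals are only names. The number of arrays limits the precision, and differences well below 2-fold stayed unresolved with 4 animals a group.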
